A study of Mus musculus with 52 samples.

Results

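The heart samples of this mouse study were 3 wild-type and 3 Tug1-/- libraries, and they were taken as the rows marked Heart in a table that stacks 7 tissues. The descriptions of the heart samples point to the testes table instead, and the tissue column of the table itself was followed. They are 6 of the 52 samples of the series. All mice were males on a mixed C57BL/6J and 129S6 background, recorded as N3 to C57BL/6J for both genotypes, and no age is given in the labels. Tug1-/- mice are homozygous for the Tug1 tm1.1Vlcg allele, in which the gene body is replaced by a lacZ reporter while the promoter and first exon are kept and no Neo cassette remains. The deletion is present in every cell, so no heart cell type is singled out by it. The labels give no strain typing of the DNA next to the allele, so the allele and strain sequence linked to it cannot be told apart. Typing of the rest of the genome is not given either. Strain differences between the mice elsewhere in the genome therefore cannot be told apart from the genotype. Poly(A) RNA from whole heart was sequenced as paired-end reads, and the sources used here do not state whether the sequenced mice were littermates.

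Tug1 (taurine upregulated gene 1) is a long noncoding RNA that is conserved between human and mouse and is made in many tissues. A noncoding locus can act through its RNA or through its DNA, and the second kind of action is looked for in the genes that lie beside it on the same chromosome. The heart itself holds cardiomyocytes that contract and burn fatty acids, together with fibroblasts, vessels, macrophages and blood. Its pumping cells carry many mitochondria, whose own genome gives a large share of all heart mRNA. The comparison of the 2 genotypes asks which genes of the heart, near Tug1 and elsewhere, differ in level when the locus is gone.

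The values used are the authors' mean levels of each genotype in TPM, a scale on which all transcripts of a library add up to 1 fixed total and each is divided by its length. These values are group means, which carry no spread between mice, so no test between genotypes was made from them and no difference below carries a p-value. The comparison that the authors deposited beside them, with its own errors and p-values, was not used. A log2 ratio is the Tug1-/- mean over the wild-type mean after 0.1 TPM was added to both. A gene is described as past the fold where that ratio is at least 1.5-fold in either direction and the level is at least 1 TPM in either genotype. For read depth the table gives a mean normalised count over the 6 heart libraries, and these sum to 44870704 reads. Counting intervals are exact 95% intervals of the plain ratio of means from those counts, on the log2 scale. They cover counting error only and not the spread between mice.

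Tug1 RNA was nearly absent from the Tug1-/- hearts. The gene lies at chr11:3639785-3649673 on the minus strand (GRCm38) and is annotated as an antisense RNA. Its mean level was 11.6 TPM in wild-type hearts and 0.0544 TPM in Tug1-/- hearts, which is 0.470% of the wild-type mean, with a mean normalised count of 1183. The library labels and the level of the targeted gene therefore went the same way. All 10 cardiomyocyte markers were present in both genotypes, with a summed level of 35655 TPM in wild-type hearts and 40754 TPM in Tug1-/- hearts, and Myh6, the main adult cardiac myosin of the mouse, was at 4692 TPM and 5894 TPM.

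The 5 nearest expressed neighbours of Tug1 on its downstream side were all higher in the Tug1-/- hearts, by 1.6-fold to 2.4-fold, and 1 neighbour on its upstream side was 6.02-fold lower. Within 1 Mb of the Tug1 start the table lists 49 other genes, of which 29 reached 1 TPM. Of these 29, 6 were higher past the fold (20.7%) and 1 was lower. Across all 14004 heart genes of at least 1 TPM, 2.08% were higher past the fold and 2.49% were lower. The 5 downstream genes are the whole set of expressed genes between Limk2, which starts 240 kb from Tug1, and Morc2a beside it. Their starts lie 109 kb to 197 kb from the Tug1 start and span 88.2 kb.

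Smtn was the most abundant of these neighbours. It encodes smoothelin, a cytoskeletal protein of contractile smooth muscle, and its mean was 63.2 TPM in wild-type hearts and 140 TPM in Tug1-/- hearts (log2 ratio 1.15, counting interval 1.13 to 1.18). Inpp5j, an inositol polyphosphate 5-phosphatase, was at 7.77 TPM and 19.1 TPM (log2 ratio 1.28, counting interval 1.23 to 1.36). This was the widest ratio of the downstream group. Selenom, a selenoprotein of the endoplasmic reticulum, was at 42.5 TPM in wild-type hearts and 90.9 TPM in Tug1-/- hearts (log2 ratio 1.09). Rnf185, a ubiquitin ligase of the endoplasmic reticulum, was at 15.7 TPM and 34.2 TPM (log2 ratio 1.12). The noncoding transcript 8430429K09Rik starts beside Rnf185 on the other strand and was at 1.07 TPM and 1.80 TPM (log2 ratio 0.70, counting interval 0.47 to 1.03). This scarce transcript was no longer past the fold with 1 TPM added, with a minimum of 5 TPM or at 2-fold, where the other 4 genes were. The 3 genes of this interval under 1 TPM also had ratios above 0, among them Pla2g3 at 0.279 TPM and 0.586 TPM and Gm11946 at 0.107 TPM and 0.721 TPM. Pla2g3 overlaps Inpp5j, and Gm11946 overlaps Smtn, each on the opposite strand. The counting is not stated to use strand, so reads of such pairs cannot be told apart.

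Rnf185 and 8430429K09Rik run away from each other from neighbouring starts at 3452363 and 3452365 of chromosome 11. The RefSeq window of 250 bases before and 50 bases after the 8430429K09Rik start (GRCm38.p6) is shown because it covers the starts of both higher transcripts. CpG pairs are in capitals. The window holds 30 of them, against a median of 7 over 32851 promoter windows, and 88.3% of windows hold fewer.
8430429K09Rik (chr11:3452187-3452486, plus strand): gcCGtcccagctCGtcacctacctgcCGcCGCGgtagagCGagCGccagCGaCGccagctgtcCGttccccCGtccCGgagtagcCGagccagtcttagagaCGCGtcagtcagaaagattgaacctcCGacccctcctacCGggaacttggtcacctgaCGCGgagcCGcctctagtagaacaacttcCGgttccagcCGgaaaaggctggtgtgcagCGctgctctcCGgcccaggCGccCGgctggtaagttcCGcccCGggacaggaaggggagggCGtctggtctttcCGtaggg

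Upstream of Tug1 the picture was different. Osbp2, an oxysterol-binding protein whose start lies 214 kb from that of Tug1, was at 9.26 TPM in wild-type hearts and 1.46 TPM in Tug1-/- hearts (log2 ratio -2.59, counting interval -2.80 to -2.54). Morc2a, a chromatin ATPase that works with the HUSH silencing complex, overlaps the Tug1 start by 180 bases on the other strand and was at 10.2 TPM and 7.10 TPM (log2 ratio -0.51). That ratio is short of the fold and passes it at -0.61 once ratios are centred on the median of all genes. The microRNA gene Mir3060, which lies within Rnf215, was at 4.72 TPM and 7.14 TPM, but its mean normalised count was only 9.95 and its counting interval of -0.20 to 1.39 included equal levels. The other 22 expressed genes of the window had log2 ratios between -0.51 and 0.52, with a median of 0.16, and 18 of them were above 0. Dusp18, the first expressed gene beyond Osbp2, was at 26.1 TPM and 30.8 TPM, and Limk2 was at 10.4 TPM and 11.7 TPM.

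**Figure D1:**
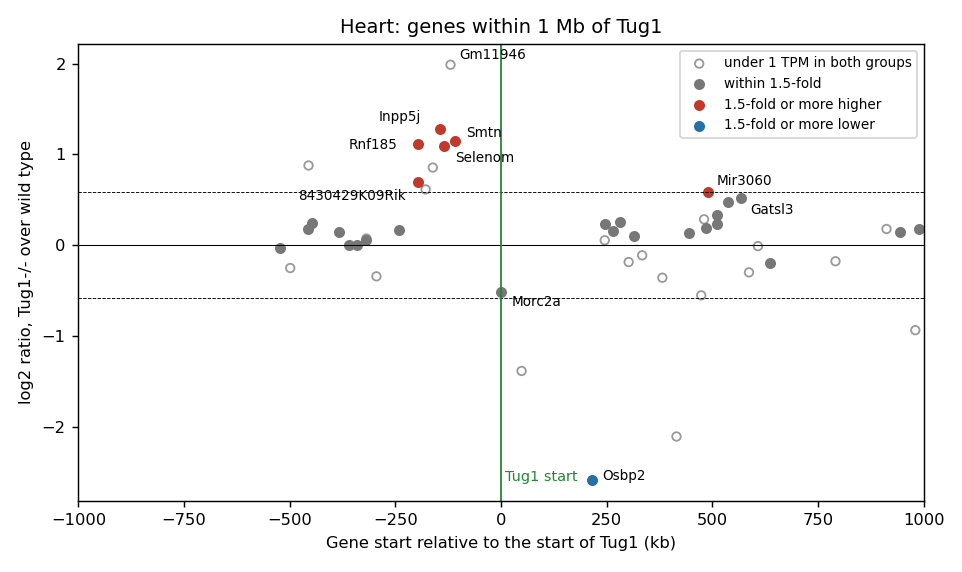
Each point is a gene of the heart table by the position of its start relative to the Tug1 start (kb) and its log2 ratio of Tug1-/- over wild-type mean TPM, with dashed lines at 1.5-fold. The 5 filled red points between 109 kb and 197 kb on the left are 8430429K09Rik, Rnf185, Inpp5j, Selenom and Smtn, and the lone filled blue point is Osbp2 at -2.59; points are group means without error bars.

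Over the whole table, 291 genes were higher past the fold in Tug1-/- hearts and 348 were lower, so 45.5% of the genes past the fold were higher. The median log2 ratio of the 14004 genes was 0.10, and centring on it gave 198 higher and 449 lower genes, of which 30.6% were higher. The 32 genes of the mitochondrial genome took 47.5% of all TPM in wild type and 43.8% in Tug1-/-. With the totals outside the mitochondrial genome made equal, the median was 0.0078, and 194 genes were higher and 426 lower. Since TPM is a share, list medians below are to be read against 0.10. Of 12207 protein-coding genes of at least 1 TPM, 137 were higher past the fold and 165 were lower, against 2.08% and 2.49% of all genes.

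The scatter of ratios was widest among scarce transcripts. Between 1 and 3 TPM, 11.8% of 3149 genes were past the fold, against 1.43% of 769 genes at 100 TPM or more. The median mean normalised count was 53.5 in the higher genes and 24.1 in the lower genes, against 745 over all 14004. Of the genes past the fold, 148 higher and 141 lower had a mean normalised count of at least 50. A poly(A) protocol captures short RNA genes poorly. Of 260 such genes of at least 1 TPM, 75 were higher past the fold and 49 were lower, against 2.08% and 2.49% of all genes.

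**Figure D2:**
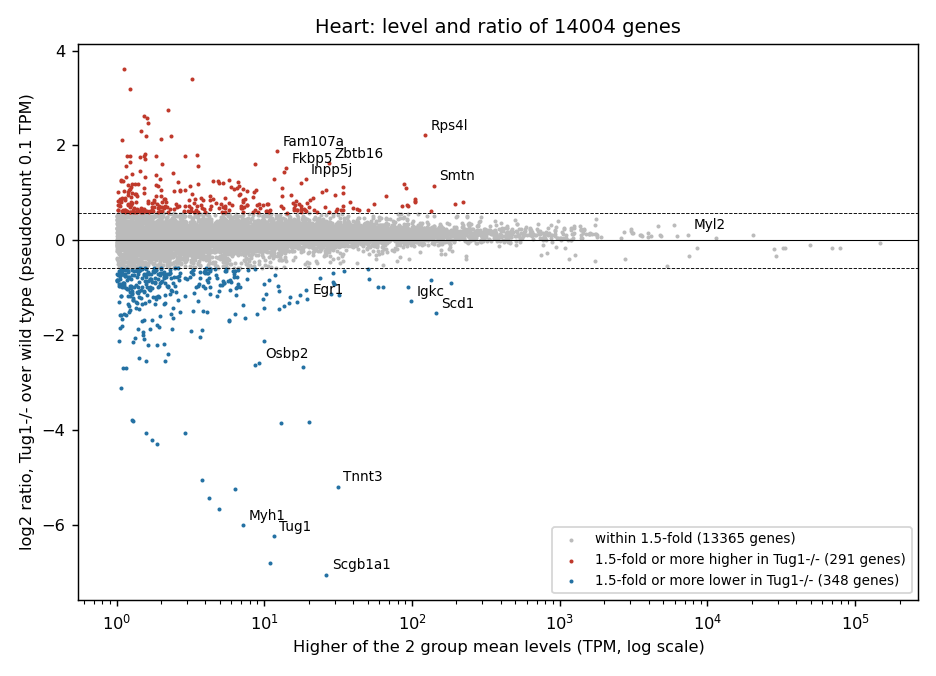
Each point is 1 of 14004 heart genes, by the higher of its group mean levels (TPM, log scale) and its log2 ratio of Tug1-/- over wild type, with dashed lines at 1.5-fold. Tug1 at -6.24 lies among airway and fast skeletal muscle genes such as Scgb1a1 and Myh1, and Rps4l at 2.22 is the widest positive ratio above 100 TPM; points are group means without error bars.

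Genes that respond to glucocorticoids were higher together. Glucocorticoids are adrenal steroids that enter cells and act through a receptor that binds DNA, and the listed genes are commonly used targets. All 10 were expressed, and the list median was 0.85. Of them 9 were higher past the fold, against 2.08% of all genes, and none was lower. The members were chosen with earlier results of these data known, so the count is a description. The same holds for the other lists. Centred on all genes, 7 remained past the fold, and Cebpd and Sgk1 did not. Zbtb16, a zinc finger repressor, was at 8.87 TPM in wild-type hearts and 27.5 TPM in Tug1-/- hearts (log2 ratio 1.62, counting interval 1.57 to 1.70). Fkbp5, a co-chaperone that dampens the glucocorticoid receptor, was at 4.83 TPM and 14.1 TPM (log2 ratio 1.52). Map3k6, a stress-responsive kinase, was at 4.68 TPM and 11.6 TPM (log2 ratio 1.29). These 3 had the widest ratios of the list. Of the metallothioneins, which bind zinc and copper, Mt2 was at 11.99 TPM and 24.6 TPM and Mt1 was at 115 TPM and 195 TPM. Cdkn1a, an inhibitor of the cell cycle, was at 11.5 TPM and 21.4 TPM, and Tsc22d3, which encodes the glucocorticoid-induced leucine zipper, was at 59.3 TPM and 105 TPM. Cebpd, a transcription factor, was at 5.83 TPM and 9.40 TPM. Sgk1, a kinase that controls ion transport, was at 28.5 TPM and 44.1 TPM. Lcn2, an iron-carrying lipocalin, was short of the fold at 1.29 TPM and 1.90 TPM.

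Of the 10 listed genes, 8 had a RefSeq promoter window (GRCm38.p6). A palindromic glucocorticoid response element made of the letters GNACA and TGTNC with 3 bases between them, searched on both strands, was found in 3 of these 8 genes, Map3k6, Mt1 and Sgk1. The same letters were found in 0.537% of 27025 genes with a window. The match began at base 70 of the Map3k6 window, base 157 of the Mt1 window and base 63 of the Sgk1 window, where the gene starts after base 250. These windows are shown, with the match in capitals, because they are the listed promoters that hold it. The match is a description of letters, and binding was not measured.
Map3k6 (chr4:133240568-133240867, plus strand): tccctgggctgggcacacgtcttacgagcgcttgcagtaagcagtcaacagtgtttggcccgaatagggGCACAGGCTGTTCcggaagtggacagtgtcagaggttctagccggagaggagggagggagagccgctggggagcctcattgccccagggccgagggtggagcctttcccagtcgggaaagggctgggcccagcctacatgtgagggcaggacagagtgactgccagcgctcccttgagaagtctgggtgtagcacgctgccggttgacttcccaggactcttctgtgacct
Mt1 (chr8:94178839-94179138, plus strand): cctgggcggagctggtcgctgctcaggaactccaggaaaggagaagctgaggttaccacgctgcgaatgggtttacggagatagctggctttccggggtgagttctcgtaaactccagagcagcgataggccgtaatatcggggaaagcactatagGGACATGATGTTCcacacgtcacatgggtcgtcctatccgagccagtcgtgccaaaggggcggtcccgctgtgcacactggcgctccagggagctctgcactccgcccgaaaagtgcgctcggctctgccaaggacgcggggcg
Sgk1 (chr10:21993640-21993939, plus strand): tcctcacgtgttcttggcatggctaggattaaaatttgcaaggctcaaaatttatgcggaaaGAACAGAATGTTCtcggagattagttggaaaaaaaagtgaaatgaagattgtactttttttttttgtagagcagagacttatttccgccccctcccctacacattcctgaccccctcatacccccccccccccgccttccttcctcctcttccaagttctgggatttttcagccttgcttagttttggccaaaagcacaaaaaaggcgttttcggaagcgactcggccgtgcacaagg

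Heat shock genes, which encode the chaperones that refold damaged proteins, were also above the all-gene median. All 15 listed genes had ratios above 0.10, the list median was 0.43, and 4 were higher past the fold, against 2.08% of all genes. Once centred, 3 were past it. Hsph1, a large chaperone that helps the main heat shock protein release its clients, was at 12.4 TPM in wild-type hearts and 26.01 TPM in Tug1-/- hearts (log2 ratio 1.07, counting interval 1.02 to 1.12). Hspa1b was at 3.43 TPM and 6.81 TPM and Hspa1a was at 2.31 TPM and 4.28 TPM. These 2 stress-inducible genes are near-identical copies. Only uniquely mapped reads were counted, so their levels rest on the reads that tell them apart. Dnaja1, a partner that feeds clients to them, was at 10.2 TPM and 15.9 TPM (log2 ratio 0.63), and was short of the fold at 0.53 once centred. The abundant chaperone Hsp90ab1 was at 727 TPM and 970 TPM (log2 ratio 0.41). The mitochondrial chaperones Hspd1 and Hspe1 had log2 ratios of 0.22 and 0.19.

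A heat shock element of the units GAA, TTC and GAA with 2 bases between neighbours, searched on both strands, was found in 4 of the 12 listed genes with a window, Hsph1, Chordc1, Hspd1 and Hspe1, and in 0.662% of all genes with a window. Hspd1 and Hspe1 start beside each other on opposite strands and share theirs. The window of Hsph1, the listed gene with the widest ratio, is shown with the match in capitals, and it began at base 287, after the start of transcription.
Hsph1 (chr5:149636287-149636586, minus strand): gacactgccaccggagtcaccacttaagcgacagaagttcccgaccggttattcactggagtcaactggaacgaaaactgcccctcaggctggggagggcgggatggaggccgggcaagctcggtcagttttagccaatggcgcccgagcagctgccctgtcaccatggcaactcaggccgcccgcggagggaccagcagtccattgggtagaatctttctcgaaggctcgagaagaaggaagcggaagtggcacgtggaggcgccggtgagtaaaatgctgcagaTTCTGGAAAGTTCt

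Hypoxia-responsive genes had a list median of 0.19, close to that of all genes, and 2 of 13 expressed members were higher past the fold, against 2.08% of all genes. Both members are subunits of the enzyme that hydroxylates proline in collagen. P4ha1 was at 21.6 TPM in wild-type hearts and 37.8 TPM in Tug1-/- hearts (log2 ratio 0.80), and P4ha2 was at 11.7 TPM and 18.6 TPM (log2 ratio 0.66, and 0.56 once centred, which is short of the fold). Vegfa, Slc2a1 and Bnip3, which are usual members of a hypoxia response, had log2 ratios of 0.22, 0.25 and 0.22. Egln1, the most abundant member and an oxygen sensor, was at 248 TPM and 283 TPM. A hypoxia response element with the letters TACGTG was found in the windows of 5 of the 13 listed genes with one, Ankrd37, Car9, Egln1, P4ha1 and P4ha2, and in 3.67% of all genes with a window. The windows of both prolyl hydroxylase genes are shown, with the match on either strand in capitals.
P4ha1 (chr10:59323046-59323345, plus strand): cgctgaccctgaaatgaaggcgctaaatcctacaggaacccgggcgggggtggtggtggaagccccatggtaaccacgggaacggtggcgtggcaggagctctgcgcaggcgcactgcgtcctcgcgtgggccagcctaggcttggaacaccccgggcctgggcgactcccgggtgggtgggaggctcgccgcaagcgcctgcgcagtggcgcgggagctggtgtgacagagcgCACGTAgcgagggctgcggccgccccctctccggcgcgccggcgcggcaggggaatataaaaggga
P4ha2 (chr11:54100674-54100973, plus strand): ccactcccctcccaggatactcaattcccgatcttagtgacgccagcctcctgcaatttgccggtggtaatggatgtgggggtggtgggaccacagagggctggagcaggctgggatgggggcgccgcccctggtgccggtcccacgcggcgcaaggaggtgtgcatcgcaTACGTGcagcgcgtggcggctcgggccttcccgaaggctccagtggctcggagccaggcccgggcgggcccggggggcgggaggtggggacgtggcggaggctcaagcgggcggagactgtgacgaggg

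Of the 16 expressed clock genes, 3 were higher past the fold, against 2.08% of all genes, and 1 of them was past it once centred. Per2, a repressor of the clock that was past the fold either way, was at 7.56 TPM in wild-type hearts and 17.7 TPM in Tug1-/- hearts (log2 ratio 1.22, counting interval 1.16 to 1.29). Per1 was at 26.9 TPM and 42.5 TPM (log2 ratio 0.66), and Ciart, a repressor of the same loop, was at 10.6 TPM and 16.6 TPM (log2 ratio 0.65). Once centred, Per1 and Ciart were at 0.55 and short of the fold. Among the other clock genes, Cry1, another repressor, had a log2 ratio of 0.41. Nr1d1 was at 89.3 TPM and 87.0 TPM and Dbp at 56.9 TPM and 59.5 TPM, while Arntl, which drives the loop, was at 1.63 TPM and 1.12 TPM (log2 ratio -0.51, and -0.62 once centred, which is past the fold in the lower direction). The list median was 0.21. The time of day of collection is not given in the labels.

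Immediate early genes, which cells switch on within minutes of a stimulus, leaned to lower levels. Of 13 expressed members, 4 were lower past the fold, against 2.49% of all genes, and none was higher. Of the same members 10 had ratios below 0, and the list median was -0.31. Egr1 was at 19.6 TPM in wild-type hearts and 8.25 TPM in Tug1-/- hearts (log2 ratio -1.24, counting interval -1.32 to -1.18). Fos was at 14.9 TPM and 6.45 TPM (log2 ratio -1.20), Egr3 was at 1.42 TPM and 0.726 TPM, and the nuclear receptor Nr4a1 was at 50.5 TPM and 33.2 TPM (log2 ratio -0.61). Nr4a3 and Zfp36 lay on the other side, with log2 ratios of 0.52 and 0.29. Dusp1, the most abundant member and a phosphatase of the stress kinases, was at 73.1 TPM and 63.8 TPM.

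**Figure D3:**
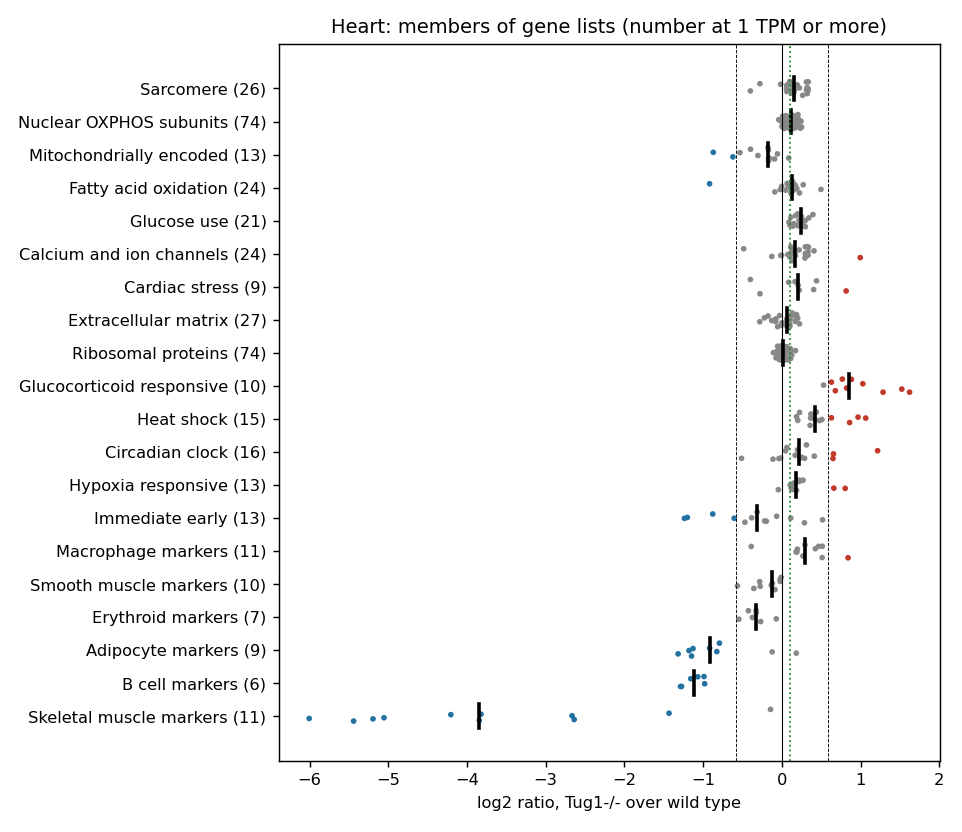
Each point is a list member of at least 1 TPM in heart by its log2 ratio of Tug1-/- over wild type, black bars are list medians, dashed lines mark 1.5-fold and the dotted green line marks the all-gene median of 0.10. The glucocorticoid list has its median at 0.85 and the skeletal muscle list at -3.84, while sarcomere and oxidative phosphorylation members lie within the dashed lines; the 0.1 TPM added to both means sets the place of members listed at 0.

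Over all genes 4.56% were past the fold in either direction, and among genes at 100 TPM or more 1.43% were, and counts of 0 or 1 in the lists that follow are to be read against those shares. Among genes of the contractile apparatus, none of the 26 expressed sarcomere genes was past the fold in either direction, and the list median was 0.15. Actc1, cardiac actin, was at 7383 TPM in wild-type hearts and 9212 TPM in Tug1-/- hearts (log2 ratio 0.32), and Myl2, the ventricular light chain, was at 6824 TPM and 7411 TPM (log2 ratio 0.12). Myh7 and Acta1, the fetal forms of myosin and actin that often return in a strained heart, had log2 ratios of -0.28 and -0.40. Nppa and Nppb, the natriuretic peptides of the same stress programme, had log2 ratios of 0.44 and 0.40. What part skeletal muscle RNA, whose markers were lower in these hearts, had in the Myh7 and Acta1 values was not tested. Nppa is also on the atrial marker list, whose median was 0.30. Of the 9 stress genes 1 was past the fold, against 2.08% of all genes in that direction. It was Ctgf, a matrix-associated growth factor at 59.3 TPM and 105 TPM (log2 ratio 0.82). None of the 27 extracellular matrix genes was past the fold, and their median of 0.06 turned to -0.04 once centred.

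Among 24 genes of calcium handling and ion channels, 1 was past the fold, near the share of 4.56% over all genes. Kcna5, a potassium channel that repolarises heart muscle, was at 17.0 TPM in wild-type hearts and 34.1 TPM in Tug1-/- hearts (log2 ratio 0.995, counting interval 0.94 to 1.06). Kcnj2, which sets the resting potential, had a ratio of -0.48 and went past the fold in the lower direction once centred. Atp2a2, the calcium pump of the cardiac sarcoplasmic reticulum, was at 3754 TPM and 4617 TPM (log2 ratio 0.30), and the list median was 0.17. Of 8 atrial markers, Bmp10, a growth factor of the atria, was past the fold at 57.4 TPM and 94.3 TPM, and the list median was 0.30. The 4 ventricular markers had a median of 0.03, which turned to -0.07 once centred.

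Of the genes of energy metabolism, none of the 74 nuclear genes of oxidative phosphorylation was past the fold, and their log2 ratios ran from -0.04 to 0.25 with a median of 0.12. Their 13 partners encoded in the mitochondrial genome had a median of -0.17, with 12 below 0 and all 13 below the all-gene median. The most abundant, mt-Co1, was at -0.06, and the 2 past the fold, mt-Nd4l and mt-Atp8, rested on mean normalised counts of 19.95 and 27.5. Once centred, mt-Atp6 was past it too, at -0.64, with means of only 4.79 TPM and 3.28 TPM. Also scarce were mt-Co2 and mt-Co3, at 5.50 TPM and 4.21 TPM in wild type, where mt-Co1 was at 147917 TPM. All of these scarce genes are among the 12 below 0. Of 24 fatty acid genes 1 was past the fold, again near 4.56%, namely Angptl4, an inhibitor of lipoprotein lipase, at 9.97 TPM in wild-type hearts and 5.23 TPM in Tug1-/- hearts (log2 ratio -0.92). Ppara, the receptor that drives fatty acid oxidation genes, was at 18.1 TPM and 27.4 TPM (log2 ratio 0.60), and was short of the fold at 0.50 once centred. It was the only one of 10 mitochondrial regulators past the fold. None of the 21 glucose genes was past the fold, with log2 ratios from 0.09 to 0.39 and a median of 0.24, and 20 of them lay above the all-gene median.

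Several other programmes held few or no genes past the fold. None of 15 genes of endoplasmic reticulum stress, 13 interferon-induced genes, 10 antigen presentation genes, 8 expressed genes of the HUSH complex and its partners, 2 cold-inducible genes or 74 ribosomal protein genes was past it. Their medians were 0.18, 0.19, 0.08, 0.23, -0.06 and 0.01 in that order, and those of antigen presentation and ribosomal proteins turned below 0 once centred. Hspa5, the main chaperone of the endoplasmic reticulum, was at 224 TPM in wild-type hearts and 240 TPM in Tug1-/- hearts. Of 12 expressed targets of ATF4, a factor of amino acid stress, 1 was past the fold, against 2.08% of all genes in that direction. That gene was Ddit4, an inhibitor of mTORC1, at 38.6 TPM and 88.0 TPM (log2 ratio 1.19). Phgdh, an enzyme of serine synthesis on the same list, went past the fold in the lower direction at -0.67 once centred.

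Genes of fast skeletal muscle, which heart muscle hardly uses, were far lower in the Tug1-/- hearts. In bulk RNA, fewer cells of a type and less RNA per cell cannot be told apart. Group means also do not show whether a single wild-type library carried these transcripts. Whether these and the airway transcripts below came from the heart itself or from tissue collected with it was not tested. Of 11 skeletal muscle markers 10 were lower past the fold, against 2.49% of all genes, and their summed level was 163 TPM in wild-type hearts and 55.0 TPM in Tug1-/- hearts. Tnnt3, fast troponin T, was at 31.5 TPM and 0.763 TPM (log2 ratio -5.19). The fast myosin heavy chains Myh1 and Myh2 were at 7.22 TPM and 3.78 TPM in wild type and at 0.0141 TPM and 0.0169 TPM in Tug1-/-. Myh4 and Tnnc2, at 4.24 TPM and 1.74 TPM in wild type, were listed at 0 in Tug1-/-. Mylpf, Atp2a1, Tnni2 and Pvalb had log2 ratios from -3.84 to -2.64. Myl1, which was at 52.1 TPM and 47.2 TPM, was the exception. The list median of -3.84 is the value of Atp2a1 and does not turn on the genes at 0. Mybpc1, a myosin-binding protein of skeletal muscle that is not on the list, was at 2.90 TPM and 0.0800 TPM.

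An airway gene was among the lowest ratios of the heart table. Scgb1a1, the secretory protein of club cells of the airway, was at 26.3 TPM in wild-type hearts and 0.0995 TPM in Tug1-/- hearts. Bpifa1, another airway secretory gene, was at 11.0 TPM in wild type and was listed at 0 in Tug1-/-. The other 5 lung markers were under 1 TPM in both genotypes. The alveolar surfactant gene Sftpc was at 0.265 TPM and 0.0152 TPM, and Sftpb was at 0.147 TPM and 0.131 TPM.

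B cell and adipocyte markers were lower as well. All 6 B cell markers were lower past the fold, against 2.49% of all genes, with a list median of -1.11 and a summed level of 202 TPM in wild-type hearts and 90.9 TPM in Tug1-/- hearts. Cd79a and Cd79b, the signalling chains of the B cell receptor, were at 12.5 TPM and 17.4 TPM in wild type and at 5.91 TPM and 7.76 TPM in Tug1-/-. Jchain, which links secreted antibodies and marks plasma cells, was at 2.24 TPM and 0.347 TPM. Of 9 adipocyte markers 7 were lower past the fold, against the same 2.49%, with a list median of -0.92 and a summed level of 302 TPM and 189 TPM. Adiponectin (Adipoq) was at 32.2 TPM and 14.5 TPM, leptin (Lep) at 1.38 TPM and 0.492 TPM, and Ucp1, the heat-producing protein of brown fat, at 29.7 TPM and 15.7 TPM. Pparg and Cidea were near even, with log2 ratios of 0.18 and -0.12.

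Most markers of the other cell types lay within the fold. Macrophage markers had a median of 0.29 over 11 genes, with Cd163, a scavenger receptor for haemoglobin, past the fold at 11.3 TPM in wild-type hearts and 20.4 TPM in Tug1-/- hearts, and C1qa, a complement subunit, at 99.4 TPM and 142 TPM. All 7 erythroid markers had ratios below 0, with a median of -0.33 and Hbb-bt past the fold once centred, and the 4 adult globin genes took 4.38% of TPM in wild type and 3.43% in Tug1-/-. All 10 smooth muscle and pericyte markers were also below 0 but within the fold, with a median of -0.13, including Acta2 at 181 TPM and 165 TPM. Once centred, Cnn1, a calponin of smooth muscle, was past the fold at -0.67. Smtn, the smooth muscle gene beside Tug1, went the other way from this list. Fibroblast and endothelial markers had medians of -0.02 and 0.06, the latter at -0.04 once centred. Cldn5, a junction protein of vessel walls, was the endothelial member past the fold at 34.9 TPM and 22.3 TPM. Few markers of T cells, neutrophils and Schwann cells were expressed, and 1 of 3, 0 of 3 and 1 of 4 of them were lower past the fold, against 2.49% of all genes. Their medians were -0.56, -0.51 and -0.25, and once centred 2 of 3, 2 of 3 and 1 of 4 were past it. None of the 5 mesothelial markers was past the fold. The part of the skeletal muscle, airway, B cell and adipocyte transcripts in the other differences was not tested. Without the immunoglobulin segments and the members of these lists, 255 of the 348 lower genes were left.

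**Figure D4:**
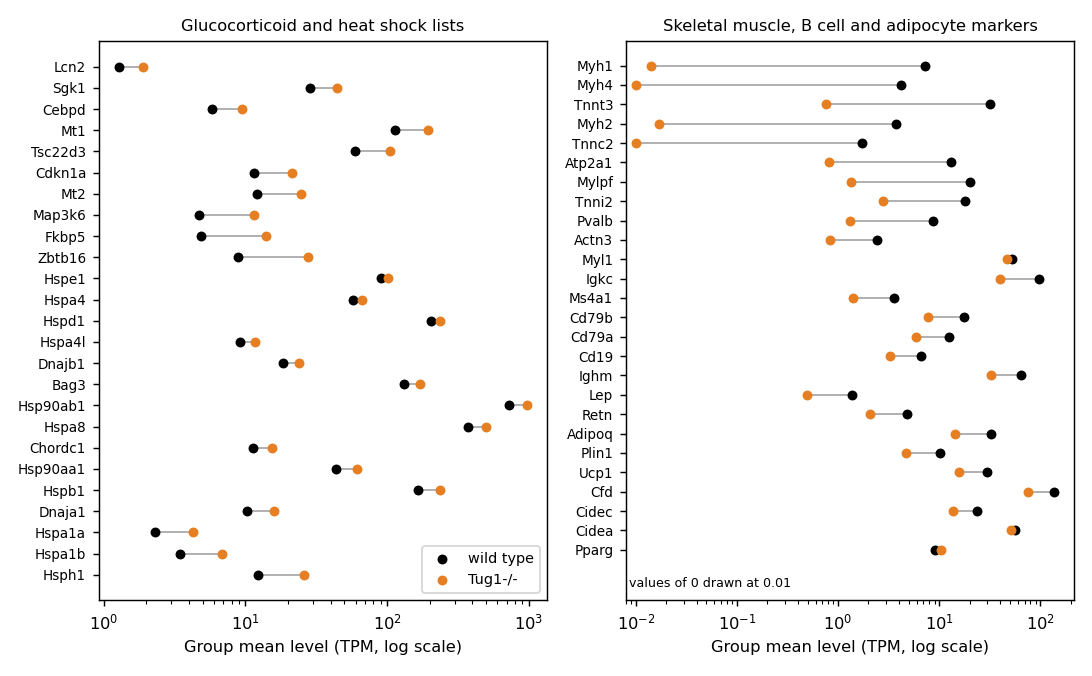
Mean level in TPM (log scale) of each list member of at least 1 TPM in wild-type (black) and Tug1-/- (orange) hearts, for glucocorticoid and heat shock genes on the left and for skeletal muscle, B cell and adipocyte markers on the right; values of 0 are drawn at 0.01. Orange lies to the right of black for all 25 genes on the left, and to the left of black for all genes on the right except Pparg; there are no error bars because the points are group means.

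The 12 widest positive ratios outside the Tug1 window, among genes with a mean normalised count of at least 50, opened with Rps4l. It is a processed copy of a ribosomal protein gene and was at 26.1 TPM in wild-type hearts and 122 TPM in Tug1-/- hearts (log2 ratio 2.22, counting interval 2.14 to 2.31). Reads of such a copy and its parent gene can be hard to separate, so the value is uncertain. Fam107a, an actin-associated stress gene, was at 3.24 TPM and 12.2 TPM (log2 ratio 1.88). Hif3a, a member of the hypoxia-inducible factor family, was at 0.325 TPM and 1.15 TPM, and Arrdc2, an arrestin-domain protein, was at 4.92 TPM and 13.6 TPM (log2 ratio 1.45). Rtn4r, the Nogo receptor, was at 2.33 TPM and 5.77 TPM. Igsf23 and the pseudogene Gm5905 were at 2.68 TPM and 2.98 TPM in wild type and at 5.96 TPM and 6.49 TPM in Tug1-/-. The others of the 12 were Zbtb16, Fkbp5, Map3k6, Per2 and Ddit4, given above. The 12 lowest ratios were 9 skeletal muscle genes, the airway genes Scgb1a1 and Bpifa1, and Jchain.

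The same ratios in eyes (3 wild-type and 3 Tug1-/- samples), liver (3 and 3), spleen (3 and 3) and prostate (3 and 2) are set beside those of heart as group means, and the differences between tissues were not tested. All-gene medians were -0.11 in eyes, 0.01 in liver, -0.11 in spleen and 0.04 in prostate. Rnf185 was higher in each, with log2 ratios of 0.81 to 1.04 against 1.12 in heart. The ratios of 8430429K09Rik ranged from 0.63 to 1.22 against 0.70, and in liver it was under 1 TPM in both genotypes. Smtn was at 0.82 in eyes and 0.86 in prostate, but at 0.23 in liver and -0.19 in spleen. Osbp2 was at -2.25 in liver, where it was under 1 TPM in both genotypes, and at 0.18 in eyes and 0.95 in prostate, so the low level in heart was not seen in those 2. Morc2a was at -0.66 in eyes, -1.57 in spleen, -3.09 in prostate and -3.33 in liver, against -0.51 in heart.

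Away from Tug1, Rps4l was higher in all 4 of the other tissues, with log2 ratios of 1.09 to 3.75. Fkbp5 had ratios of 0.31 in eyes, 0.83 in prostate, 0.93 in spleen and 1.24 in liver, against 1.52 in heart. The median of the glucocorticoid list was 1.17 in liver over 9 genes, 0.58 in spleen, 0.42 in prostate and 0.32 in eyes, and that of the heat shock list ran from 0.11 in eyes to 0.57 in liver. The skeletal muscle list, at -3.84 in heart, had a median of 0.78 in eyes, where its genes summed to 8076 TPM and 13808 TPM. It had 4 expressed genes in spleen (median -0.43), 3 in prostate (0.04) and 1 in liver. B cell markers, at -1.11 in heart, were at -0.34 in spleen, 0.13 in liver, 0.26 in eyes and 1.34 in prostate. Adipocyte markers, at -0.92 in heart, were at -0.39 in liver over 2 genes and -0.23 in spleen over 3 genes, and at 1.51 in eyes and 2.00 in prostate.

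**Figure D5:**
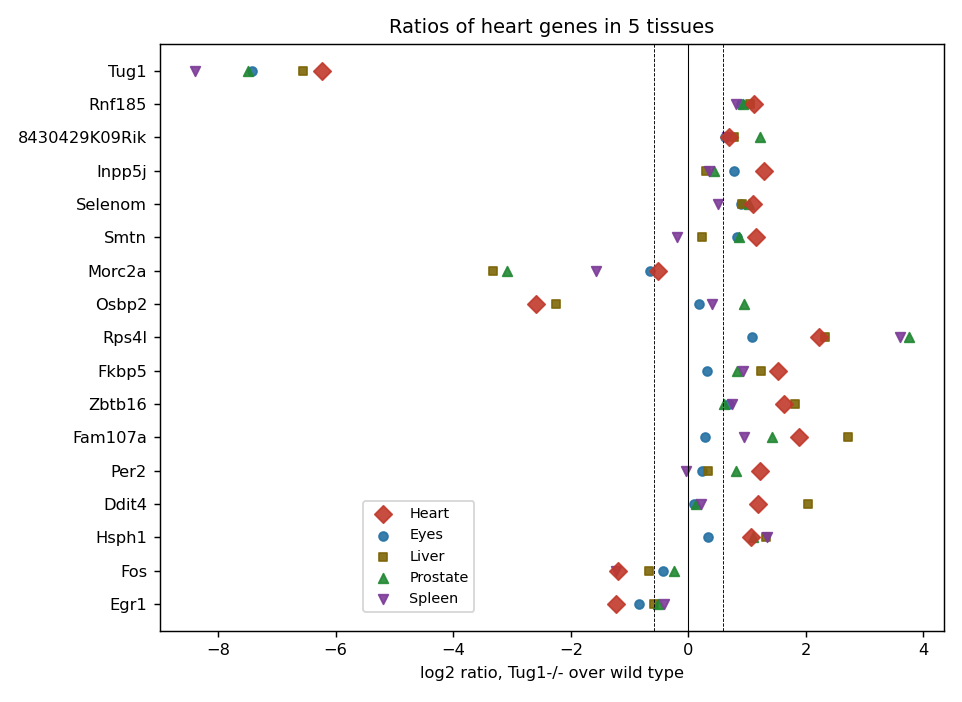
Log2 ratios of Tug1-/- over wild-type mean TPM for Tug1, its neighbours and genes elsewhere, in heart (red diamonds) and in eyes, liver, prostate and spleen, with dashed lines at 1.5-fold. Rnf185 and 8430429K09Rik lie right of the upper dashed line in all 5 tissues, while Osbp2 is at -2.59 in heart and -2.25 in liver and above 0 in the others. Under 1 TPM in both genotypes were 8430429K09Rik in liver and Osbp2 in liver and spleen. The points are group means without error bars, and no difference between tissues was tested.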

How the data were processed

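Poly(A) RNA of 6 hearts was sequenced by the authors as paired-end reads. Per the study's methods and the submitters' processing notes, base calls came from CASAVA 1.8.2, reads were aligned with STAR to GRCm38 (mm10), uniquely mapped reads were counted on GENCODE vM16 genes with featureCounts, genes were removed where no replicate reached 3 reads, and each comparison was fitted with DESeq2. The strand setting is not given in the sources used here. The deposited values used were the authors' mean TPM per genotype and the mean normalised count, a signal over the 6 libraries. The deposited table also holds the comparison of the authors (a moderated log2 fold change, its error, a statistic, p-values, a ratio of means and a call), and none of these were used. No values of single samples were used, so depth per sample is unknown.

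Ratios were computed after 0.1 TPM was added, and genes were called past the fold at 1.5-fold and 1 TPM. No gene was tested. Counting intervals are exact (Clopper-Pearson, 95%) and split 6 times the mean normalised count in the ratio of the means. Genes near Tug1 start within 1 Mb of its start. Of the gene lists, 37 were fixed before the values were computed here and 4 were added after (airway, lipogenesis, gamma protocadherins and immunoglobulin segments). Members and lists were chosen with earlier results of these data known. Named genes are Tug1, genes within 1 Mb past the fold, the 12 highest and 12 lowest ratios elsewhere with a mean normalised count of at least 50, and in each list up to 4 members past the fold plus the most abundant member (2 where none passed). Other genes named were chosen after their values were seen. Steps were tested on simulated data. Python 3.11.15, numpy, scipy and pandas were used. Promoter windows are those of RefSeq (GRCm38.p6).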

Additional observations from a re-analysis of the deposited data

How the results depend on the processing

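No paired analysis was possible because the values used here are group means. For the same reason fits with a replicate block and values without each replicate could not be run, and the cause of any difference below was not tested beyond what the setting itself does. The 291 higher and 348 lower genes became 152 and 183 with 1 TPM added to both means, 880 and 1167 without a minimum level, 113 and 77 with a minimum of 5 TPM, 87 and 147 at 2-fold, 148 and 141 with a mean normalised count of at least 50, and 137 and 165 among protein-coding genes. The genes near Tug1 past the fold numbered 7, and 14 without a minimum level. They were 5 with 1 TPM added, at 2-fold and among protein-coding genes, and 6 with a minimum of 5 TPM, with a mean normalised count of at least 50 and where the counting interval excluded equal levels. They were 7 in windows of 0.5 Mb and 2 Mb. The log2 ratio of Tug1 was -3.58 with 1 TPM added, -7.49 with 0.01 TPM added, -6.34 once centred and -6.27 with equal totals outside the mitochondrial genome, a setting added after seeing the data. Medians that turned below 0 once centred were extracellular matrix (-0.041), antigen presentation (-0.025), ventricular (-0.074), endothelial (-0.044) and ribosomal (-0.092), and with equal totals outside the mitochondrial genome they were -0.034, -0.018, -0.068, -0.037 and -0.086. Of 79 named genes past the fold, 73 were past it once centred, 67 with 1 TPM added and 79 with 0.01 TPM added, and none changed sign under these settings. With 3 mice per genotype and only their means, no statement here separates the genotype from variation between mice.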

Other observations

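The following groups were put together after their values were seen, so their counts are descriptions. Immunoglobulin gene segments, which only cells of the B lineage rearrange and transcribe, were lower as a class. Of the 75 segments of at least 1 TPM in heart, 67 were lower past the fold and 1 was higher, against 2.49% and 2.08% of all genes, with a summed level of 428 TPM in wild-type hearts and 194 TPM in Tug1-/- hearts. Of these segments 49 lay between 1 and 3 TPM, where 11.8% of all genes were past the fold in either direction. Igkc, the constant part of the kappa light chain, was at 98.2 TPM and 40.2 TPM. Ighg3, a heavy chain of secreted antibody, was at 1.16 TPM and 0.0962 TPM. The more abundant heavy chain Ighg2c was near even, at 16.8 TPM and 17.6 TPM (log2 ratio 0.06). Segments are near copies of each other. Only uniquely mapped reads were counted, so their levels rest on the reads that tell them apart. Of 8 airway secretory genes, 5 were expressed and all 5 were lower past the fold, against 2.49% of all genes. Besides Scgb1a1 and Bpifa1, these were Scgb3a2, at 1.87 TPM in wild type and listed at 0 in Tug1-/-, Scgb3a1, at 2.10 TPM and 0.772 TPM, and Cyp2f2, at 2.89 TPM and 1.22 TPM.

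Of 12 genes of fatty acid synthesis and its control, 3 were lower past the fold, against 2.49% of all genes, and none was higher, with a list median of -0.11. Once centred, Acaca was past it as well. Scd1, the desaturase that makes monounsaturated fatty acids, was at 145 TPM in wild-type hearts and 49.8 TPM in Tug1-/- hearts (log2 ratio -1.54, counting interval -1.57 to -1.51). Fasn, fatty acid synthase, was at 29.1 TPM and 18.0 TPM, and Elovl6, an elongase, at 2.30 TPM and 1.39 TPM. Acacb, the carboxylase form that limits fatty acid entry into mitochondria, lay on the other side at 72.8 TPM and 92.7 TPM. These genes are also active in fat cells, whose markers were lower in the same hearts, and the part of fat in these values was not tested. Of 13 expressed clustered gamma protocadherins, which are cell adhesion proteins made from alternative first exons of 1 locus, 5 were higher past the fold, against 2.08% of all genes, and none was lower. Most of these genes are scarce, as are the segments above. Pcdhga12 was at 1.01 TPM and 2.01 TPM and Pcdhga2 at 2.09 TPM and 3.52 TPM, while Pcdhgc3, the most abundant, was at 5.17 TPM and 5.04 TPM. These genes share 3' exons, and reads from those exons cannot be assigned to 1 of them.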
